A study of Mus musculus with 8 samples.

Results

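The collagen, laminin and Adamts genes encode much of the extracellular matrix and part of the enzymes that shape it. Membership went by name, as RefSeq protein-coding genes called Col with a chain number, Lama, Lamb, Lamc, Adamts or Adamtsl. These families, their classes and the related genes below were chosen with earlier results of these data known, so the sets are not blind. The rule found 79 of 21883 protein-coding genes on the mm10 chromosomes: 44 collagen genes, 11 laminin genes, 19 Adamts genes and 5 Adamtsl genes. What was measured at them is H2AK119ub, histone H2A ubiquitinated by Polycomb repressive complex 1 (PRC1), mapped by chromatin immunoprecipitation and sequencing (ChIP-seq).

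The cells were interfollicular epidermal progenitors from the back skin of newborn mice (postnatal day 0), sorted as EpCAM-positive, Sca1-positive and high in α6-integrin. The control group (genotype given as Control) and the Eed cKO group (genotype Eed-/-, without Eed, a subunit that Polycomb repressive complex 2 needs for its activity) each had 2 H2AK119ub libraries and 1 input, and each is represented by 1 deposited peak list. The promoter that drove the deletion, the strain, the sex and the pooling of animals are not given in the labels. The Ring1a/b 2KO group (Ring1a-/- Ring1b-/-, 1 H2AK119ub library and 1 input) was not analysed here. The control list held 4621 peaks and the Eed cKO list 2541, as positions without a score, so read depth is unknown. Whether the shorter list reflects the mark, the number of reads or the call settings cannot be told apart. With 1 list per genotype there is no replicate error, no difference below was tested, and all values are descriptions of these lists.

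In skin, the basement membrane separates the epidermis from the dermis. The membrane's parts include a laminin sheet, a collagen IV network, and the collagens XVII and VII that tie hemidesmosomes and anchoring fibrils to it. Basal keratinocytes are among the cells that make these parts. Expression was not measured here. Fibrillar collagens and the collagens that coat their surface are made mainly by dermal fibroblasts and by cartilage and bone cells. Adamts genes encode secreted metalloproteases that trim procollagens and cleave proteoglycans, and Adamtsl genes encode related proteins without the protease domain. PRC1 and H2AK119ub are known for holding genes of other lineages silent.

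A gene was counted as marked when a peak came within 2 kb of its start or end. By this measure 15 of the 79 genes (19.0%) were marked in control, where 11.7% of all protein-coding genes were. In Eed cKO 10 of 79 (12.7%) were marked, against 7.40% of all genes. The 95% Wilson intervals of the 2 shares ran from 11.9 to 29.0% and from 7.02 to 21.8%. They cover counting error only and treat genes as independent. Both lists marked 8 of the 79 genes, or 10.1% against 5.71% of all genes, namely Col2a1, Col19a1, Col26a1, Adamts2, Adamts7, Adamts8, Adamts18 and Adamtsl5. Control alone marked 7 (8.86% against 5.95%): Col8a2, Col13a1, Col14a1, Col15a1, Col27a1, Adamts15 and Adamts19. Eed cKO alone marked Col9a3 and Adamts1 (2.53% against 1.70%). Of the 15 genes marked in control 53.3% were also marked in Eed cKO, close to the 49.0% over all control-marked genes.

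The marked genes fell in 6 of the 7 classes. None of the 13 chains of the epidermal basement membrane was marked in either list. Of 11 fibrillar collagens 2 carried a control peak and 1 an Eed cKO peak. Of 9 fibril-associated collagens these counts were 2 and 2, and of 14 other collagens 3 and 1. Adamts proteases had the highest shares of the 7 classes in both lists, 6 of 19 in control (31.6%) and 5 of 19 in Eed cKO (26.3%). A count of 0 of 13 allows a share of up to 23.1%, which takes in the 11.7% and 7.40% of all genes, so a lower share than background was not detectable with this number of genes. The 66 matrix genes outside this class held all 15 control-marked genes (22.7%) and all 10 marked in Eed cKO (15.2%). These shares exceed those of all members by construction, because the class left out held no marked gene.

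**Figure D1:**
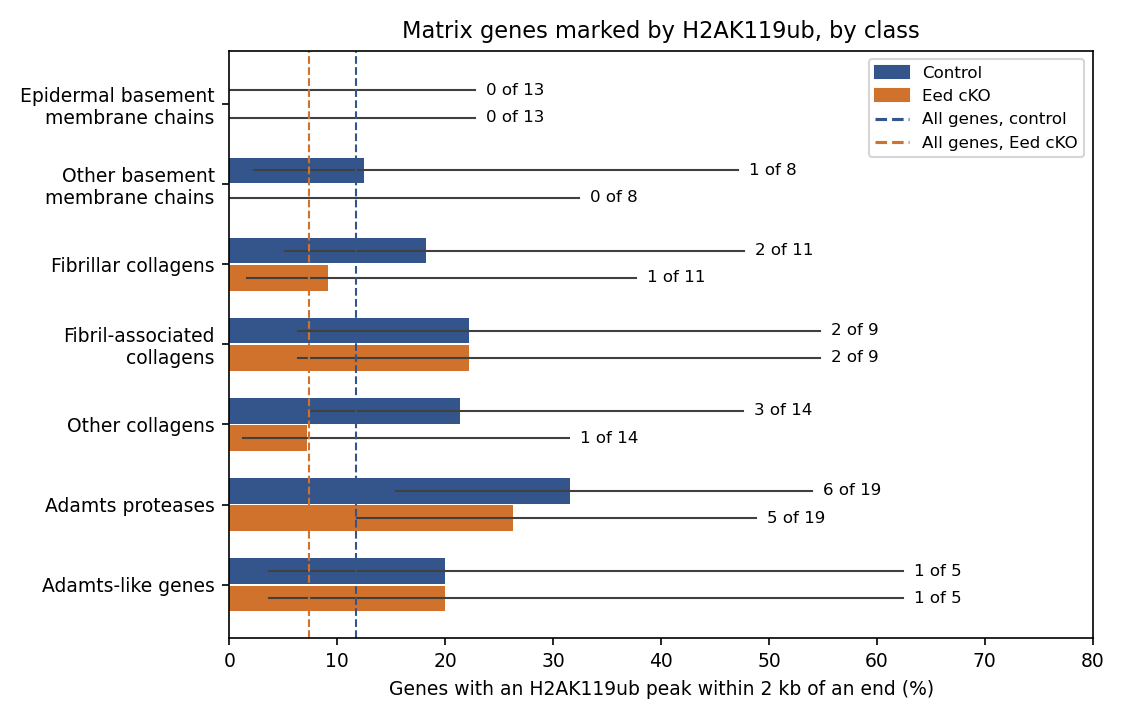
Share of genes with an H2AK119ub peak within 2 kb of an end (x axis, percent) in 7 classes of matrix genes, for the control list (blue) and the Eed cKO list (orange). Black lines are 95% Wilson intervals over genes, labels give the counts, and dashed lines mark the shares of all protein-coding genes, 11.7% and 7.40%. Epidermal basement membrane chains stand at 0 of 13 in both lists and Adamts proteases at 6 and 5 of 19.

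The epidermal basement membrane class included Col4a1, Col4a2, Col4a5, Col4a6, Col7a1, Col17a1, Col18a1, Lama3, Lama5, Lamb1, Lamb3 and Lamc1. Chains of the hemidesmosomal laminin lay far from any peak. At Lamb3 (β3 chain; chromosome 1, 193294353 to 193343878) the nearest control peak was 458 kb away and the nearest Eed cKO peak 459 kb. At Lama3 (α3 chain) the distances were 978 and 1317 kb. Col17a1, the transmembrane collagen of hemidesmosomes (chromosome 19, 47646341 to 47692042), had its nearest peaks at 180 and 245 kb. Col7a1, which forms the anchoring fibrils, had them at 120 and 120 kb. These 4 genes thus lay about 120 kb or more from any peak of either list.

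Col4a1 and Col4a2, whose spans overlap by 85 bp at their 5′ ends on chromosome 8, had control peaks no closer than 190 and 276 kb. Col4a5 and Col4a6, 1.27 kb apart on the X chromosome, had them at 29.5 and 245 kb. The Eed cKO distances for these 4 genes were 658, 522, 883 and 573 kb in the same order. For the core laminin chains Lama5, Lamb1 and Lamc1 the nearest control peaks were 68.7, 224 and 165 kb away and the nearest Eed cKO peaks 46.0, 230 and 318 kb. The one peak found inside this class was at Col18a1, which encodes the source of endostatin. A 2.56 kb control peak (chromosome 10, 77153020 to 77155580) lay in its span, 10.9 kb from the nearest end, and no Eed cKO peak met it.

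Within 100 kb of a gene end, 4 of the 13 epidermal basement membrane genes had a control peak (30.8%, against 40.3% of all genes on chromosomes with peaks) and 1 had an Eed cKO peak (7.69%, against 29.1%). Their median distance to the nearest peak was 180 kb for control peaks and 459 kb for Eed cKO peaks. The medians of all genes were 167 and 343 kb. All 79 matrix genes together had medians of 198 and 230 kb. In control the class median was thus near that of all genes. No gene of the class had a peak within 10 kb in either list, where 16.5% (control) and 10.9% (Eed cKO) of all genes had one. A count of 0 of 13 allows a share of up to 23.1%, which takes in both.

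**Figure D2:**
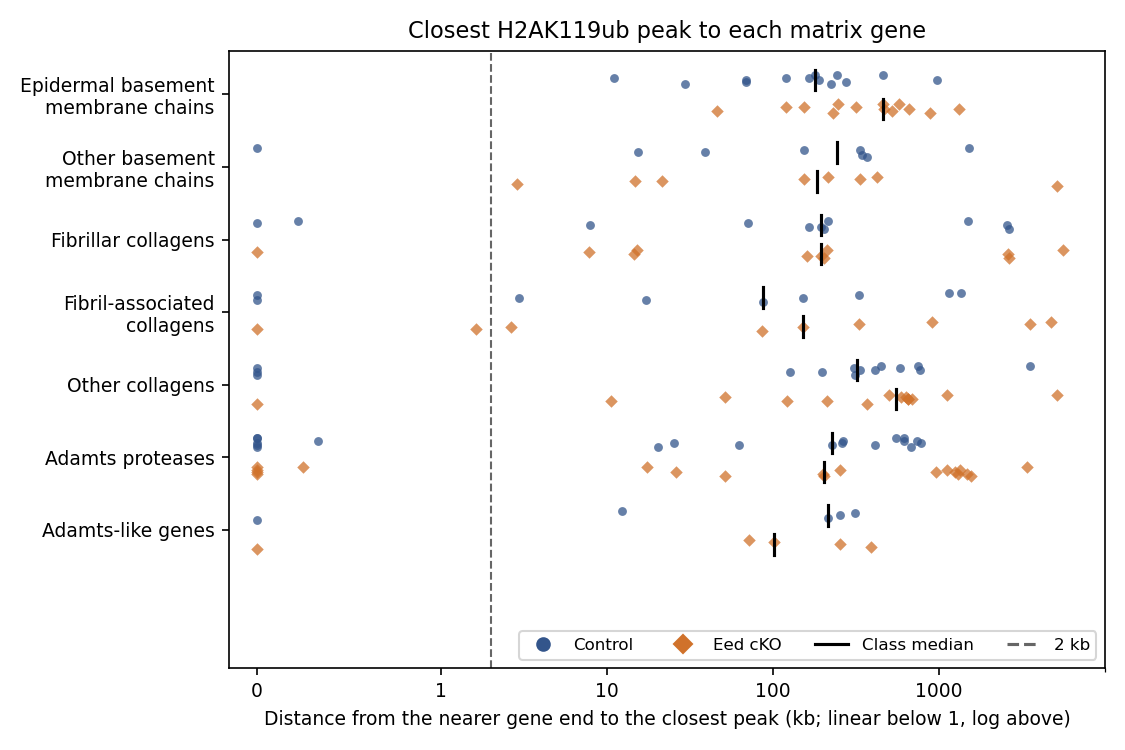
Distance from the nearer gene end to the closest H2AK119ub peak (x axis, kb, linear below 1 and log above) for each of the 79 matrix genes by class, in control (blue circles) and Eed cKO (orange diamonds). Black ticks are class medians and the dashed line is the 2 kb limit for a marked gene. No epidermal basement membrane gene lies below 10.9 kb, while every other class has genes at or near 0 in control.

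Of 8 chains of other basement membranes only Col15a1 was marked, in control. Col15a1 makes a collagen of vessel and muscle basement membranes. Its 3.11 kb control peak (chromosome 4, 47207474 to 47210579) covered the start site, and the nearest Eed cKO peak lay 213 kb away. Lama1, the α chain of early embryonic laminin, had no control peak nearer than 343 kb but a 3.96 kb Eed cKO peak inside its span, 2.87 kb from an end. Lamc3 had 2 Eed cKO peaks of 1.78 and 2.57 kb inside its span and none in control. Col4a3, Col4a4, Lama2, Lama4 and Lamb2 had no peak at their ends or in their spans. Of the 11 laminin genes 0 had a peak at an end in control and 0 had one in Eed cKO, and a count of 0 of 11 leaves room for a share as high as 27.3%.

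Among fibrillar collagens the marked gene in both lists was Col2a1, the collagen of cartilage. Its control peak was 12.4 kb wide (chromosome 15, 97996070 to 98008489) and lay wholly inside a 19.6 kb Eed cKO peak. These peaks covered 29.7% of the gene span in control and 52.0% in Eed cKO. Col27a1, another cartilage collagen, had a 2.59 kb control peak just outside its 5′ end that no Eed cKO peak met. In Eed cKO, 2 other peaks of 6.52 and 5.00 kb lay deep inside the Col27a1 span and covered 9.52% of it. The main fibril genes of dermis had no peak within 2 kb. At Col1a1 the nearest control peak was 7.89 kb away and the nearest Eed cKO peak 14.5 kb, at Col1a2 195 and 195 kb, and at Col3a1 2590 and 2596 kb. Col5a1, Col5a2, Col5a3, Col11a1, Col11a2 and Col24a1 were also unmarked in both.

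Fibril-associated collagens, which coat fibrils and link them to other matrix, showed each pattern. Col19a1 had a 5.70 kb control peak over its start site and a 1.54 kb Eed cKO peak 1142 bp from it. The Eed cKO peak covered 27.1% of the control peak. Col14a1, a collagen of dermal and tendon fibrils, had a 4.46 kb control peak at an end, and the nearest Eed cKO peak lay 3532 kb away. Col9a3, a cartilage chain, had a 5.25 kb peak in Eed cKO alone (chromosome 2, 180597486 to 180602731) that also marked the neighbouring Ogfr. The nearest control peak was 17.2 kb from Col9a3. Its partner chains Col9a1 and Col9a2 were unmarked, as were Col12a1, Col20a1 and Col22a1. Col16a1 fell just outside the 2 kb limit: its span held a 3.78 kb control peak, 2.95 kb from an end, inside a 4.58 kb Eed cKO peak, 2.62 kb from the same end. The farthest peaks still inside the limit were those of Adamts7 in control, at 333 bp from its end, and Col19a1 in Eed cKO, at 1627 bp.

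Of the other collagens, Col26a1 showed the widest Eed cKO peak of all 79 genes. A 5.38 kb control peak at its lower end (lower by coordinate) was covered to 99.8% by a 24.4 kb Eed cKO peak (chromosome 5, 136736737 to 136761157). Only 35 of the 2541 Eed cKO peaks were wider. A further 3.62 kb control peak at the upper end of Col26a1 met no Eed cKO peak. Col8a2, a network collagen of vessels and cornea, had a 6.73 kb peak over its start site in control alone. A control peak and an Eed cKO peak, each of 3.74 kb and overlapping each other by 85.9%, lay inside the Col8a2 span, the Eed cKO one 10.5 kb from its nearer end. Col13a1, a transmembrane collagen, had a 4.37 kb control peak over its start site and a 3.89 kb one inside its span, and no Eed cKO peak within 51.2 kb. The 6 collagen VI genes, Col6a1 to Col6a6, had no peak at their ends or in their spans, nor had Col8a1, Col10a1, Col23a1, Col25a1 and Col28a1.

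The 24 Adamts and Adamtsl genes included 7 marked in control (29.2%), 6 marked in Eed cKO (25.0%) and 5 marked in both (20.8%). Over all genes these shares were 11.7, 7.40 and 5.71%. The 95% Wilson intervals ran from 14.9 to 49.2% in control and from 12.0 to 44.9% in Eed cKO. Grouped by substrate, a grouping made after the values were seen, 1 of 3 procollagen N-proteinases was marked. This was Adamts2, the main procollagen I processing enzyme, with a control peak of 6.88 kb and an Eed cKO peak of 5.93 kb over the start site. Its relatives Adamts3 and Adamts14 were unmarked. Of 7 proteoglycanase genes 3 were marked, each in another way. Adamts8 had peaks of 6.68 and 7.31 kb at the same end, and the control peak lay wholly inside the Eed cKO one. Adamts15, 20.1 kb from Adamts8 on chromosome 9, had a 5.04 kb peak in control alone at the end that faces Adamts8, and the nearest Eed cKO peak was 17.5 kb away. Adamts1 had a 3.41 kb peak in Eed cKO alone (chromosome 16, 85803362 to 85806769), 249 bp outside its start, and no control peak within 618 kb. Its neighbour Adamts5, 55 kb away, was unmarked, as were Adamts4, Adamts9 and Adamts20.

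Adamts7, which cleaves cartilage oligomeric matrix protein, had control peaks of 2.00 kb at an end and 1.77 kb inside the span. Both lay inside 1 Eed cKO peak of 7.81 kb. Adamts18 had matching peaks of 4.61 and 5.04 kb over its start site. Adamts19 had a 3.22 kb peak in control alone, with the nearest Eed cKO peak 1569 kb away. The fibrillin-binding Adamts6 and Adamts10, the von Willebrand factor protease Adamts13, and Adamts12, Adamts16 and Adamts17 were unmarked. So were Adamtsl1 to Adamtsl4, of which Adamtsl1 held control peaks of 3.07 and 1.31 kb inside its span. Adamtsl5, a fibrillin-binding protein, was the most fully covered of all 79 genes. A 12.1 kb control peak at its 3′ end also marked Pcsk4 and Reep6, and a 13.2 kb one at its 5′ end also marked Plk5. The Eed cKO peaks at the same places were 12.3 and 16.7 kb wide. Together they covered 37.9% of the Adamtsl5 span in control and 79.0% in Eed cKO. The mark at Adamtsl5 was thus part of peaks that reach over neighbouring genes, while of the other 16 marked genes only Col9a3 shared its peak with another protein-coding gene.

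**Figure D3:**
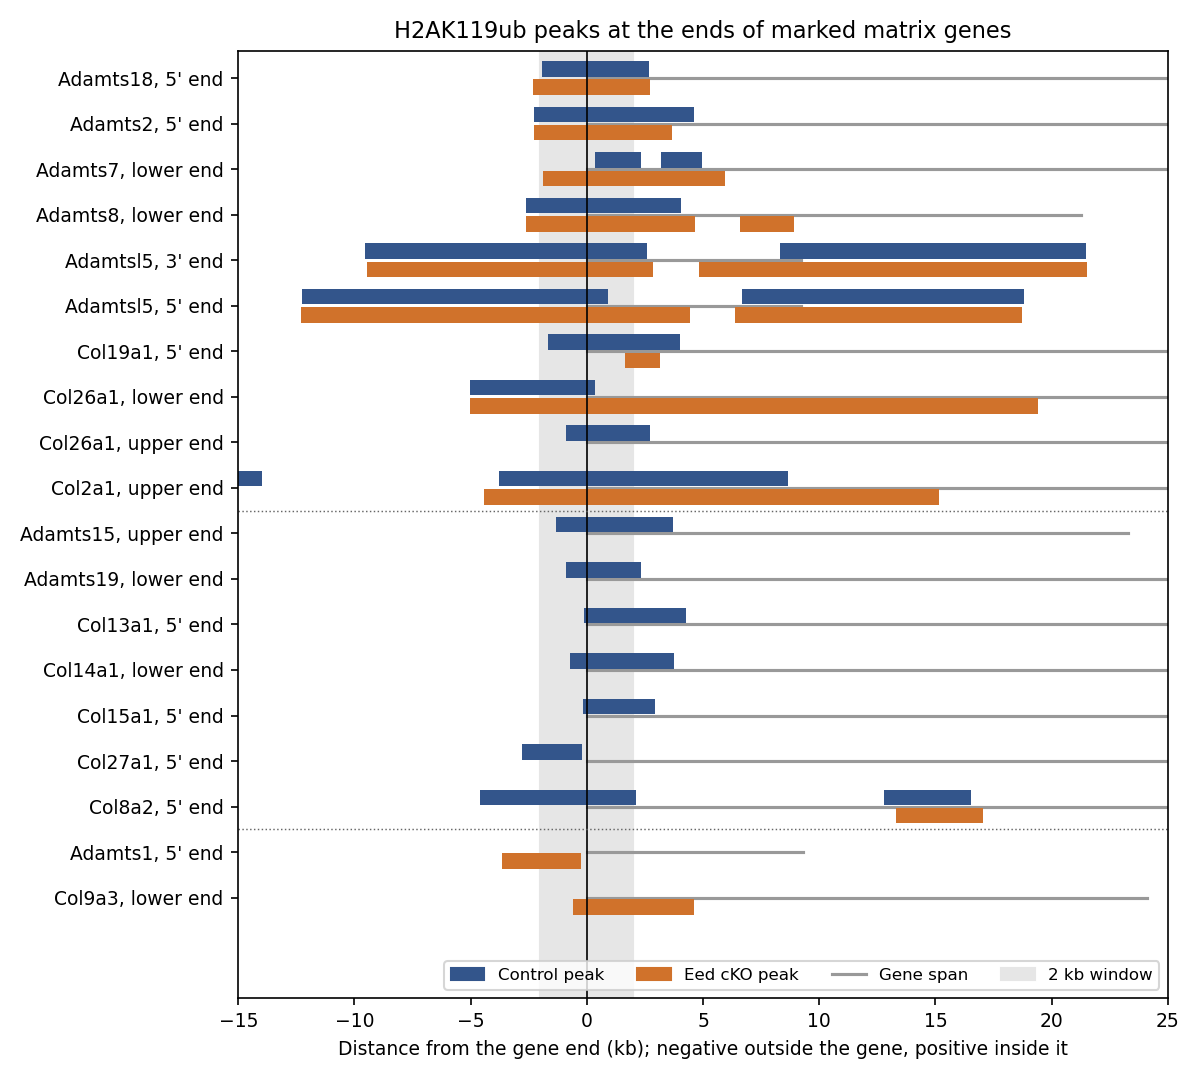
Position of H2AK119ub peaks (control blue, Eed cKO orange) around each marked end of the 17 marked matrix genes, in kb from the gene end (x axis, negative outside the gene, positive inside it). Grey lines are gene spans, shading is the 2 kb window, dotted lines separate genes with peaks of both lists, of control only and of Eed cKO only, and ends are called lower or upper by coordinate where no strand was given. Peaks and spans are cut at the axis limits. Apart from the upper end of Col26a1, genes marked in both lists have control and Eed cKO peaks at the same end. Among the peaks that reach farther into the gene in Eed cKO are those of Col26a1, Col2a1 and the 5′ end of Adamtsl5 (4430 against 925 bp). At Adamts7 the Eed cKO peak reaches 5935 bp and the inner control peak 4957 bp.

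The 17 control peaks at these genes ranged from 2.00 to 13.2 kb with a median of 5.04 kb, against 5.43 kb over all control peaks at gene ends. The 11 Eed cKO peaks ranged from 1.54 to 24.4 kb with a median of 7.31 kb, against 6.16 kb. Eed cKO peaks met 9 of the 17 control peaks (52.9%), against 45.9% over gene ends. Of the 8 genes marked in both lists, 6 had the wider peak in Eed cKO: Col2a1, Col26a1, Adamts7, Adamts8, Adamts18 and Adamtsl5. The ratio of the widest Eed cKO peak to the widest control peak was 4.54 at Col26a1, 3.90 at Adamts7 and 1.58 at Col2a1. It was between 1.09 and 1.27 at the other 3, 0.863 at Adamts2 and 0.271 at Col19a1. At Adamts7 the ratio counts only the 2.00 kb control peak at the end. The Eed cKO peak there also covers the separate 1.77 kb control peak inside the span, so 3.90 partly reflects how the control peaks were split. The median ratio was 1.18, against 0.992 over all 1249 genes marked in both lists, of which 48.5% had the wider peak in Eed cKO. With only 8 genes, ranging from 0.271 to 4.54, a difference from all genes was not tested. The median width of the widest control peak was 6.19 kb at members of both lists and 4.37 kb at members of the control list only. Over all genes these medians were 7.36 and 4.83 kb.

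**Figure D4:**
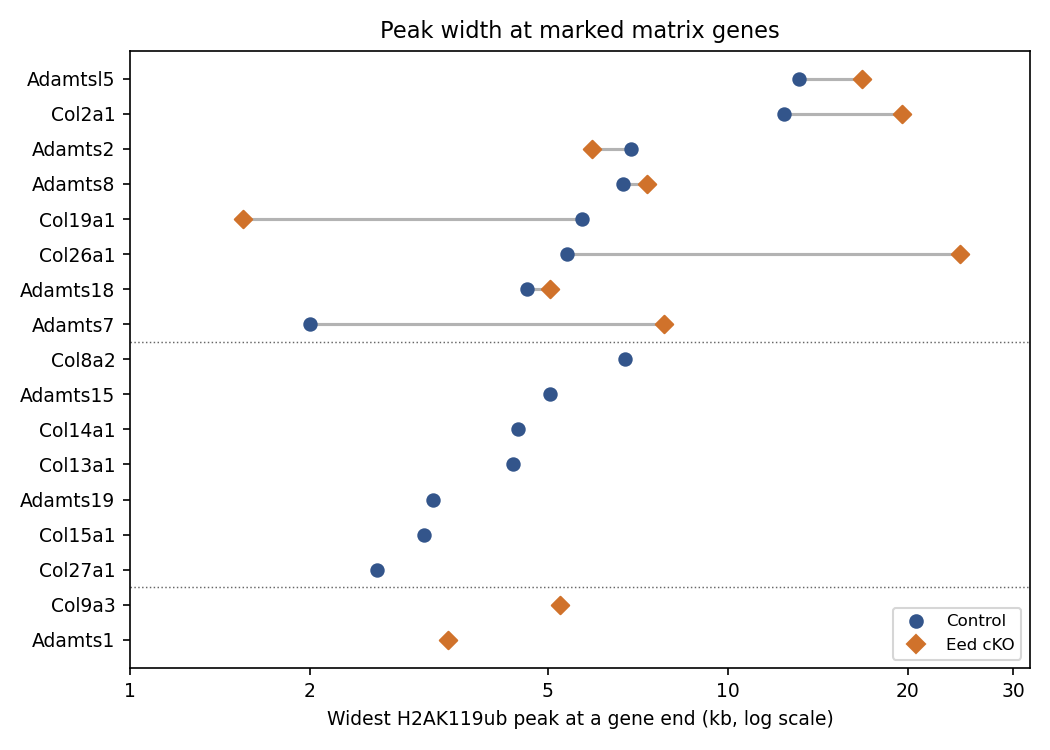
Widest H2AK119ub peak at an end of each of the 17 marked matrix genes (x axis, kb, log scale) in control (blue circles) and Eed cKO (orange diamonds), with grey lines joining the values of genes marked in both lists. Dotted lines separate genes with peaks of both lists, of control only and of Eed cKO only. Col26a1 and Adamts7 lie to the right in Eed cKO by 4.54 and 3.90 times, and Col19a1 to the left. The control value of Adamts7 leaves out a further control peak under the same Eed cKO peak.

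Promoter composition was a feature that the marking did not use. RefSeq promoter windows of GRCm38.p6 (300 bases, 250 before and 50 after the start site) were found for 54 of the 79 genes. The motif counted was the dinucleotide CG, which reads the same on both strands, and 95.4% of 21262 windows of protein-coding genes held it at least 1 time. The 9 marked genes with a window had a median of 22 CG and an observed/expected ratio of 0.712. The 45 unmarked ones had 11 and 0.442. Over all genes the medians were 20 and 0.689 for those marked in either list and 12 and 0.532 for those in neither. A window was called CpG-dense when its ratio exceeded 0.6 and its GC content 50%. Of the 23 CpG-dense matrix genes 7 carried a control peak (30.4%) and 4 an Eed cKO peak (17.4%), against 14.3% and 9.66% of all CpG-dense genes. Of the other 31 matrix genes 1 was marked in each list (3.23%), Col15a1 in control and Adamts1 in Eed cKO, where 8.01% and 4.76% of all genes that were not CpG-dense were marked.

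The epidermal basement membrane genes were not uniformly poor in CG. Of 10 with a window 4 were CpG-dense, namely Col4a1 (37 CG), Col4a2 (33), Lama5 (24) and Lamb1 (18), and 0 of these 4 was marked in either list. A count of 0 of 4 leaves room for a share as high as 75.0%, which takes in the 14.3% (control) and 9.66% (Eed cKO) of all CpG-dense genes. Of the 19 CpG-dense genes of the other classes 7 carried a control peak and 4 an Eed cKO peak. The lowest of the class were Col4a6 with 3.00 CG, Lamb3 with a median of 3.50 over its 2 windows and Col17a1 with 5.00. Unmarked genes with CG-rich windows were found outside the basement membrane too, such as Adamtsl3 (46), Adamts14 (44), Adamts3 and Adamts20 (41 each), Col5a1 (34) and Col23a1 (24).

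**Figure D5:**
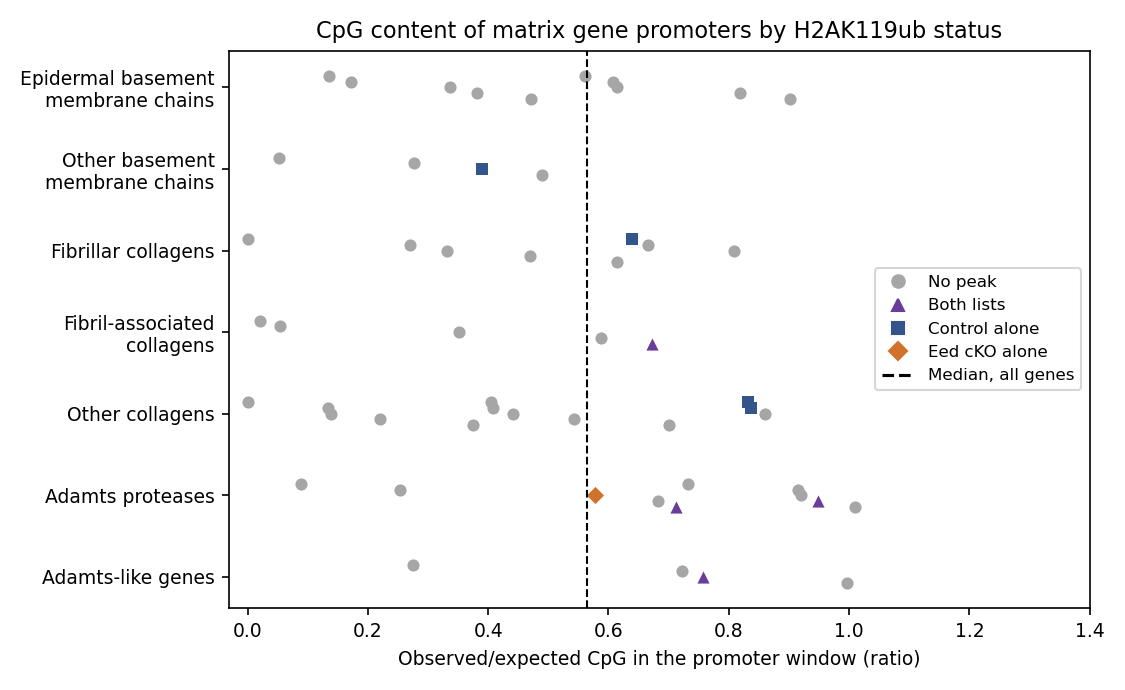
Observed/expected CpG ratio in the 300-base promoter window (x axis) of 54 matrix genes by class. Symbols give the H2AK119ub status (grey circle no peak, triangle both lists, square control alone, diamond Eed cKO alone), and the dashed line is the median of all genes, 0.565. Of the 9 marked genes all but Col15a1 (0.390) lie above that line, as do 4 unmarked epidermal basement membrane genes.

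The 250 bases upstream of the start site are shown for 4 genes, to set windows inside H2AK119ub peaks beside windows of keratinocyte basement membrane genes without one. They run 5′ to 3′ on the gene's strand, from RefSeq on GRCm38.p6, with each CG in capitals. Adamtsl5 (chr10:80348449-80348698, minus strand, 22 CG) has the widest control peak over a start site among genes marked in both lists. Col8a2 (chr4:126286544-126286793, plus strand, 24 CG) has the widest among those in control alone. Lamb3 (chr1:193301744-193301993, plus strand, 2 CG, the first of its 2 listed windows) and Col17a1 (chr19:47692043-47692292, minus strand, 2 CG) had no peak.
Adamtsl5: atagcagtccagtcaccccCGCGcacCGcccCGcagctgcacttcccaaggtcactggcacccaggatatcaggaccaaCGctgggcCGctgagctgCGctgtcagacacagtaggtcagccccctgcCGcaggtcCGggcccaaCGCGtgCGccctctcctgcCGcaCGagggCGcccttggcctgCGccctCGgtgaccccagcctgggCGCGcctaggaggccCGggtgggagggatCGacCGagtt
Col8a2: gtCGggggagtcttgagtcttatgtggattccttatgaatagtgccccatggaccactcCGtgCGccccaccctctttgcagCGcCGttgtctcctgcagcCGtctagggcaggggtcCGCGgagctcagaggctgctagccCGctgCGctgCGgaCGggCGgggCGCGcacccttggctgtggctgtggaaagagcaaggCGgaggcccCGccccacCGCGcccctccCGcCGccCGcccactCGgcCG
Lamb3: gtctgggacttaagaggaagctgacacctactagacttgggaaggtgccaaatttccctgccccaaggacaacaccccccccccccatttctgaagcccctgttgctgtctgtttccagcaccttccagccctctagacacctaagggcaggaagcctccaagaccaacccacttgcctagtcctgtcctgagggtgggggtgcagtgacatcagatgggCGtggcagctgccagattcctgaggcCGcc
Col17a1: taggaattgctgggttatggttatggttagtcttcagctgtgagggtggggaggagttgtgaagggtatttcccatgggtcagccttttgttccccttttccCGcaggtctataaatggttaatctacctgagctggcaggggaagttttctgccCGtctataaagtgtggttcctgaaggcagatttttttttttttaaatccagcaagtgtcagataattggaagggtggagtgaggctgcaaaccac
The capitals recur along most of the Adamtsl5 and Col8a2 stretches, at a GC content of 70.8 and 70.0%. The Lamb3 and Col17a1 stretches hold 2 each, at 58.8 and 46.0%. These 2 genes are among the lowest of their class, so the display does not stand for the class. In the 300-base windows the unmarked Col4a1 (37 CG) and Col4a2 (33) exceeded the marked Adamtsl5 (29), and the marked Col15a1 had 8. The Lamb3 window shown lies inside the gene span, which begins at 193294353.

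Other matrix genes, 71 from a list of partners, receptors and enzymes, included 21 with a control peak (29.6%) and 10 with an Eed cKO peak (14.1%), where all genes had 11.7 and 7.40%. Of 18 linkers and receptors of the basement membrane 4 carried a control peak and 3 an Eed cKO peak. Nid2, which links laminin to collagen IV, had a 6.50 kb peak in control alone, and Dst, the hemidesmosomal plakin, a 4.23 kb one. The Dst peak covered 0.351% of a 401 kb span, and which Dst transcripts start near it was not examined. Agrn, a basement membrane proteoglycan, had a control peak of 2.99 kb and an Eed cKO peak of 9.27 kb, and Frem2 a 2.02 kb peak in Eed cKO alone. Peaks at Cd151, a tetraspanin partner of laminin-binding integrins, were 2.49 and 12.3 kb wide. The laminin receptor chains Itga3, Itga6, Itgb1 and Itgb4 were unmarked.

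Of 17 collagen-processing genes 8 carried a control peak (47.1%, interval 26.2 to 69.0%) and 2 an Eed cKO peak (11.8%, interval 3.29 to 34.3%). All genes had 11.7 and 7.40%, and the Eed cKO interval takes in the second of these. Marked in control alone were 6 of these genes. The widest peaks among them were at Pcolce2, an enhancer of procollagen cleavage (5.69 kb), and the prolyl hydroxylase subunits P4ha3 (5.65 kb) and P4ha2 (4.39 kb). Next came the crosslinking enzyme Lox (4.09 kb). Loxl1 (3.92 and 15.5 kb) and Tll1 (5.58 and 3.69 kb) were marked in both lists. Of 16 fibril and elastic fibre partners 3 carried a control peak (18.8%, interval 6.59 to 43.0%) and 2 an Eed cKO peak (12.5%, interval 3.50 to 36.0%). Bcan had peaks of 13.2 and 13.4 kb, and Comp, a cartilage matrix protein that Adamts7 cleaves, of 11.4 and 8.90 kb. Of 14 matrix metalloproteases and inhibitors the counts were 5 (35.7%, interval 16.3 to 61.2%) and 3 (21.4%, interval 7.57 to 47.6%). Mmp9 had peaks of 8.67 and 11 kb, and Timp2 one of 9.04 kb in control alone. Of 6 collagen receptors Itga11 carried a peak, in control.

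The labelled cell type was set beside its markers. Of 5 basal keratinocyte markers (Krt5, Krt14, Trp63, Epcam and Ly6a) 0 were marked in either list, which leaves room for a share as high as 60.0% and so takes in the 11.7% and 7.40% of all genes. Of 6 dermal fibroblast markers 3 carried a control peak (Pdgfra, Prrx1 and Twist2) and 2 an Eed cKO peak (Pdgfrb and Twist2). Kdr of 4 endothelial markers and Sox10 and Kit of 5 melanocyte markers had a control peak only. Of 4 leukocyte markers 0 had any, with a limit of 75.0% by the same rule and 49.0% by the Wilson interval. Peak lists do not measure expression, so the cell makeup behind either list was not tested.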

How the data were processed

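The deposited files were 2 lists of H2AK119ub peaks, 1 for control and 1 for Eed cKO, holding a chromosome, a start and an end per the file headers and no other value. Per the submitters' processing notes the build was mm10, and Bowtie2 2.3.3.1 and SAMtools 1.9 were used. For peak calling, the use of inputs and the joining of libraries, the method is not given in the sources used here.

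Starts were read as counted from 0. Gene spans came from RefSeq (GRCm38.p6), with protein-coding genes of the autosomes, X and Y. A gene was marked when a peak overlapped by at least 1 bp the 2000 bp on either side of its start or end. Strand was known only for genes in the RefSeq promoter table. The limit given for a count of 0 was 3 divided by the number of genes, which is loose for few genes. Members, classes and related lists were chosen with earlier results of these data known. Every marked member and every epidermal basement membrane member was to be named; 1 item is not reported here. Related genes were named widest peak first, at most 6 per list, and the unmarked integrins were named after their values were seen. A stricter CpG threshold was chosen after seeing the data. The alternatives were other windows, narrower peak sets, merged peaks, other overlaps and another basement membrane class. Marking and coverage were tested on simulated data. Tables were computed with pandas 2.3.3 and numpy 2.4.6 under Python 3.11.15, intervals with scipy 1.17.1 and figures with matplotlib 3.10.9.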

Additional observations from a re-analysis of the deposited data

How the results depend on the processing

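Of 93 recomputed values, 77 stayed within 1.5 times of the reported count and 16 did not. Some of the 77 could not move, because trimming the control list leaves the Eed cKO counts unchanged. Others were counts of 0 that stayed 0, so the 77 overstate stability. With the whole gene span and 2 kb on both sides, 4 members were marked in Eed cKO alone, 1 epidermal basement membrane member (Col18a1) was marked in control and 2 fibrillar collagens were marked in Eed cKO. With the start site alone, run on the 54 members with a promoter window and so on fewer genes, 8 were marked in control, 5 in Eed cKO, 4 in both lists, 4 only in control and 1 only in Eed cKO. Fibrillar collagens then had 1 and 0, and Adamts and Adamtsl genes 3 in control and 4 in Eed cKO, the reverse of the reported order of 7 and 6. With the wider peaks of each list, 5 members were marked in both and 1 fibrillar collagen in control. With only the widest control peaks, in the number of the Eed cKO peaks, 4 members were marked in control alone and 1 fibrillar collagen in control, and Adamts and Adamtsl genes had 5 in control and 6 in Eed cKO, again the reverse order. With all basement membrane chains as the class, 1 (Col15a1) was marked in control. With a stricter CpG threshold, chosen after seeing the data, 6 marked members were CpG-dense in place of 7. Under all 8 window, list and overlap settings the share of marked members was above that of all genes in both lists, from 13.9 to 22.8% in control and 8.86 to 19.0% in Eed cKO. These settings reuse the same peaks and are not independent. The top shares came from the whole gene span, where all genes had 13.7 and 8.83%. Members had a median length of 114 kb against 17.2 kb for all genes, so that setting searched more sequence per member. The part of gene length in these shares was not tested. No paired analysis was possible because each genotype has 1 peak list. Unknown depth limits every count, since a weak region can be missed in either list.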
